A study of Arabidopsis thaliana with 12 samples.

Results

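The genes described here are CHLM (AT4G25080), CHLP (AT1G74470), VTE6 (AT1G78620) and SIRB (AT1G50170), which act in tetrapyrrole and phytol metabolism of the plastid. They were chosen by function, with earlier results of these data known. Each was measured by 1 probe listed with exactly 1 gene, so that all 4 were found among 689 named loci and 3438 features in all. The platform annotation and the TAIR10.1 gene table list CHLP and VTE6 by locus only, and their symbols were assigned by locus. Because the treatment contrast was known when the genes were chosen, their values are given as a description. Calls of these genes in the fit over all features are listed, but nothing is read from them.

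Tetrapyrroles are built in the plastid from glutamate along 1 common path, which then divides. One branch inserts magnesium and leads to chlorophyll, another inserts iron and leads to heme, and a further one leaves the path earlier and leads to siroheme. Chlorophyll carries a phytyl tail, a reduced isoprenoid chain, and phytol set free when chlorophyll is broken down can be phosphorylated again and used for tocopherol (vitamin E), a lipid-soluble antioxidant of plastid membranes. CHLM is the methyltransferase that acts on magnesium protoporphyrin IX. CHLP is the geranylgeranyl reductase that makes the phytyl chain. VTE6 is the kinase that turns phytyl phosphate into phytyl diphosphate for tocopherol. SIRB is the ferrochelatase that inserts iron to form siroheme, the cofactor of nitrite and sulfite reductase.

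The 12 arrays held total RNA of wild-type Arabidopsis thaliana plants, ecotype Columbia 0, in 2 groups of 6. In the staurosporine group, 4 h in water preceded 4 h in staurosporine, an inhibitor of many protein kinases. In the ascorbate group, 4 h in 2 µM staurosporine preceded 4 h in 25 mM ascorbate, a water-soluble antioxidant (vitamin C). Both treatments are labelled as at pH 5.5. The labels give 25 mM for staurosporine in the staurosporine group, the same figure as the ascorbate dose, and the true dose in that group cannot be settled from them. Both groups had received staurosporine, at different times, and none of the 12 arrays was from untreated plants. The labels name no tissue or plant age and do not say whether a group's arrays stand for separate plants, so the spread between arrays may be technical. In such bulk RNA, fewer cells of a type and less RNA per cell cannot be told apart.

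Values are the deposited intensities, in relative units between 0 and 100, with array medians from 0.169 to 0.486 and zeros on 10.3% to 17.3% of features. None of the 4 genes was listed at 0 on any array. Arrays with consecutive numbers (1 and 2, 3 and 4, 5 and 6) resembled each other most within each group, and each level below is a mean ± SD over the 3 averages of such pairs. The median array intensity differed between pairs in the staurosporine group, at 0.392, 0.393, 0.173, 0.169, 0.228 and 0.227 on arrays 1 to 6. With ascorbate it was 0.437, 0.431, 0.355, 0.35, 0.486 and 0.483 on arrays 1 to 6. Log2 differences are ascorbate minus staurosporine after quantile normalization, which gives every array the same distribution, unless another scale is named. On the deposited log2 scale the median difference was 0.72 over all features and 0.49 over the 2540 features without a zero.

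In the chlorophyll branch, CHLM read 0.387, 0.354, 0.171, 0.103, 0.113 and 0.137 on staurosporine arrays 1 to 6. On ascorbate arrays 1 to 6 it read 0.377, 0.405, 0.489, 0.359, 0.631 and 0.52. The groups overlapped, because staurosporine array 1 lay among the ascorbate readings, with array 2 just below the lowest of them and the other 4 staurosporine arrays well below. The pair averages were 0.211 ± 0.138 and 0.464 ± 0.0984 (SD, n = 3 pair averages per group). The normalized log2 difference was 0.52 ± 0.19 (SE over 12 arrays), with a wider SE of 0.24 over pair averages. It was made up of −0.07, 0.53 and 1.10 in the 3 pairs. On the deposited scale it was 1.31 ± 0.36 (SE), beside a median of 0.49 over features without a zero, and 0.08, 1.66 and 2.20 in the pairs.

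The staurosporine arrays with the higher CHLM readings were also those with the higher array median, and the part of this in the CHLM difference was not tested. Taken over the median of its own array, CHLM lay between −1.01 and −0.02 on the log2 scale with staurosporine and between −0.21 and 0.46 with ascorbate. Its rank on the array, which no scaling of an array can change, was at percentile 42.2 ± 6.70 with staurosporine and 53.8 ± 6.63 with ascorbate. On ascorbate arrays 1 and 2 its rank, at percentiles 44.9 and 47.7, was within the staurosporine range of 32.5 to 49.8.

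CHLP, whose product supplies the phytyl tail, read 1.57, 1.77, 1.75, 1.43, 1.88 and 1.77 on staurosporine arrays 1 to 6. With ascorbate it read 3.44, 2.90, 2.88, 2.13, 1.95 and 1.89. The groups did not overlap, but the gap was narrow, from a highest staurosporine reading of 1.883 to a lowest ascorbate reading of 1.889. The difference was widest on arrays 1 and 2 and smallest on arrays 5 and 6. Pair averages were 1.69 ± 0.122 and 2.53 ± 0.628, a linear ratio of 1.49 of ascorbate over staurosporine.

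The normalized log2 difference of CHLP was 0.68 ± 0.099 (SE over 12 arrays), with 0.88, 0.64 and 0.53 in the pairs. Over pair averages its SE was 0.12. The sign of the CHLP difference depended on the scale. On the deposited scale the pair differences were 0.93, 0.65 and 0.07. After each array was centred on its median they were 0.78, −0.40 and −1.02. Their mean was −0.21 ± 0.29 (SE over 12 arrays), smaller in size than its SE. Its deposited difference of 0.55 was close to the median of 0.49 over features without a zero, and 52.8% of these features had a smaller one. That median covers features of every brightness, whereas CHLP was at percentile 94.6 of all features by mean intensity. The closeness is therefore not a comparison with features as bright as CHLP. Its rank moved from percentile 92.2 ± 0.781 to 95.5 ± 0.412, and each ascorbate array ranked it above every staurosporine array, at 94.8 to 96.3 against 90.8 to 93.7. These measures of the same 12 readings thus differed in sign, since the rank was higher with ascorbate, while the log2 distance from the array median was lower on arrays 3 to 6.

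**Figure D1:**
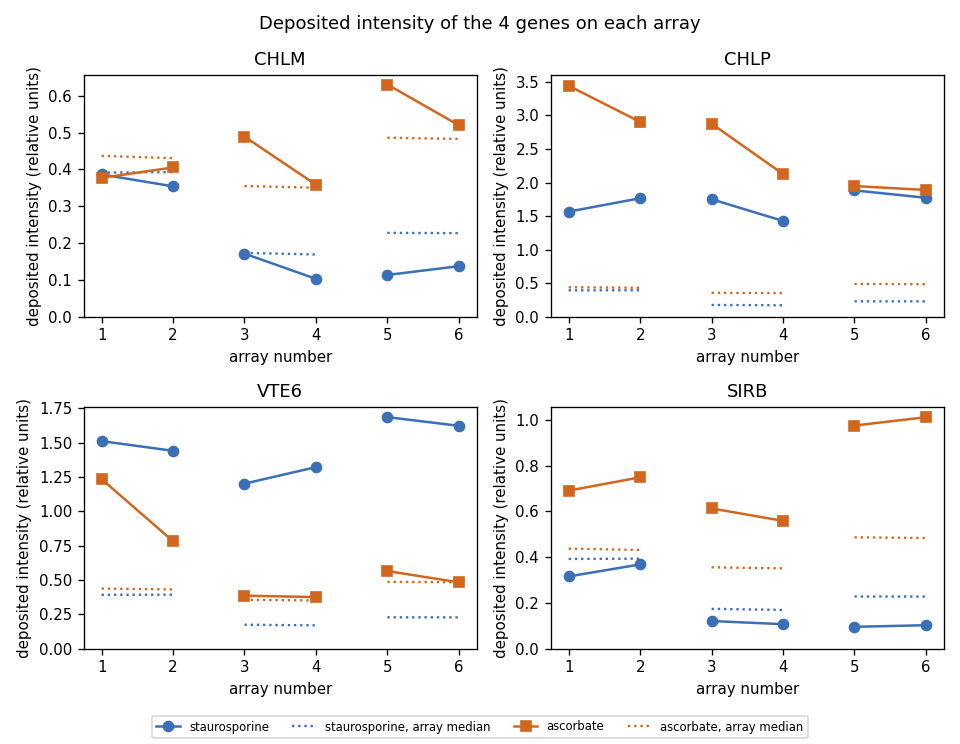
Deposited intensity (linear axis from 0, relative units) of each gene against array number, with staurosporine as blue circles and ascorbate as orange squares. Lines join the 2 arrays of a consecutive pair, and dotted lines are the median of all features on the same arrays. CHLM and SIRB with staurosporine were highest on arrays 1 and 2, as was the array median. With ascorbate, VTE6 was lower and the array medians were higher.

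VTE6, which recycles phytyl phosphate towards tocopherol, was the member that read lower with ascorbate. On staurosporine arrays 1 to 6 it read 1.51, 1.44, 1.20, 1.32, 1.69 and 1.62. On ascorbate arrays it read 1.23, 0.782, 0.385, 0.375, 0.565 and 0.483. The ascorbate readings of 5 arrays lay below all staurosporine readings, and ascorbate array 1, at 1.235, lay just above the lowest staurosporine reading of 1.202. Pair averages were 1.46 ± 0.197 and 0.637 ± 0.329, a linear ratio of 2.30 of staurosporine over ascorbate.

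The normalized log2 difference of VTE6 was −1.60 ± 0.27 (SE over single arrays), with a wider SE of 0.38 over pair averages. The difference was −0.67 in the pair of arrays 1 and 2 and −2.05 and −2.08 in the other pairs. It was negative in every pair on each of the 4 scales compared, the deposited values, quantile normalization, median centring and cyclic loess. The array medians were higher with ascorbate in every pair, but by mean intensity VTE6 was brighter than most features, at percentile 86.6. The part of array scaling in the VTE6 difference was not tested. On the deposited scale, 1.22% of features without a zero had a lower difference than VTE6. Its rank was at percentile 89.2 to 91.7 with staurosporine and at 50.0 to 86.2 with ascorbate, so that the ranks did not overlap although the intensities did. Of the 4 genes, VTE6 had the widest spread between ascorbate pairs, an SD of 0.70 between pair averages on the normalized log2 scale against 0.11 with staurosporine.

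SIRB, the last enzyme of siroheme synthesis, read 0.315, 0.368, 0.12, 0.106, 0.0948 and 0.102 on staurosporine arrays 1 to 6. On ascorbate arrays it read 0.691, 0.749, 0.613, 0.558, 0.975 and 1.01. The lowest ascorbate reading was above the highest staurosporine reading. Pair averages were 0.184 ± 0.136 and 0.766 ± 0.208, a linear ratio of 4.16 of ascorbate over staurosporine, the highest of the 4 genes. Staurosporine arrays 1 and 2, which had the highest array medians of that group, also had its highest SIRB readings, and the part of this in the ratio was not tested.

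After normalization the SIRB difference was 1.60 ± 0.21 (SE over single arrays), against 2.26 on the deposited scale. The SE of the normalized difference was wider over pair averages, at 0.32. This difference was 1.07, 1.20 and 2.55 in the pairs. It was positive in every pair on each of the 4 scales. Over the median of its own array, SIRB lay between −1.26 and −0.10 on the log2 scale with staurosporine and between 0.66 and 1.07 with ascorbate. In rank it moved from percentile 38.4 ± 7.62 to 74.2 ± 7.83, with no overlap between 29.4 to 47.4 and 67.0 to 83.4. The 2 arrays of a pair gave nearly the same SIRB value, with an SD within pairs of 0.11 and 0.089 on the normalized log2 scale, while pair averages had an SD of 0.42 with staurosporine and 0.40 with ascorbate.

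**Figure D2:**
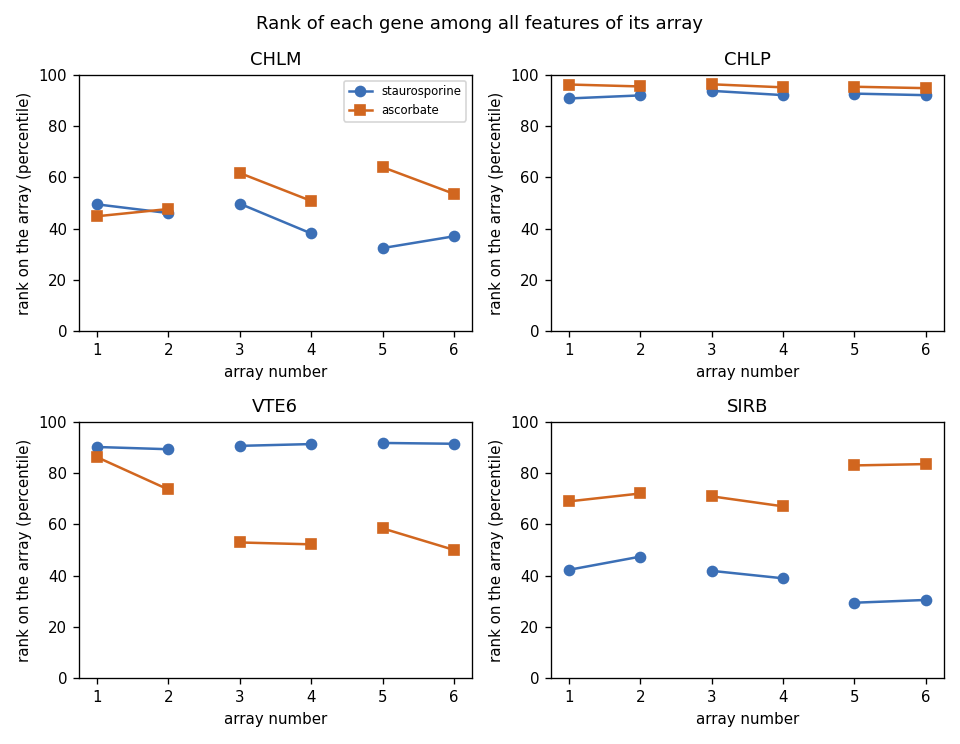
Rank of each gene among the 3438 features of its array, as a percentile (0 to 100, with 100 the brightest), against array number, with staurosporine as blue circles and ascorbate as orange squares. Lines join the arrays of a consecutive pair. SIRB and CHLP ranked higher and VTE6 lower on every ascorbate array than on any staurosporine array, and CHLM overlapped.

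Set side by side, SIRB and VTE6 had normalized differences of nearly equal size and opposite sign, 1.60 and −1.60. In both genes the pair of arrays 1 and 2 had the smallest difference of the 3 pairs on each of the 4 scales. For CHLM too this pair had the smallest difference, from −0.07 to 0.08 over the 4 scales. CHLP ran the other way, with its highest (most positive) difference in that pair on each scale, although after median centring the difference of −1.02 on arrays 5 and 6 was larger in size. The array medians differed least between the groups in the same pair, and the part of this in the pair differences was not tested. The normalized differences of CHLM, CHLP and SIRB were higher than those of 76.1%, 82.0% and 97.6% of the 2540 features without a zero, and that of VTE6 was higher than 3.74% of them.

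**Figure D3:**
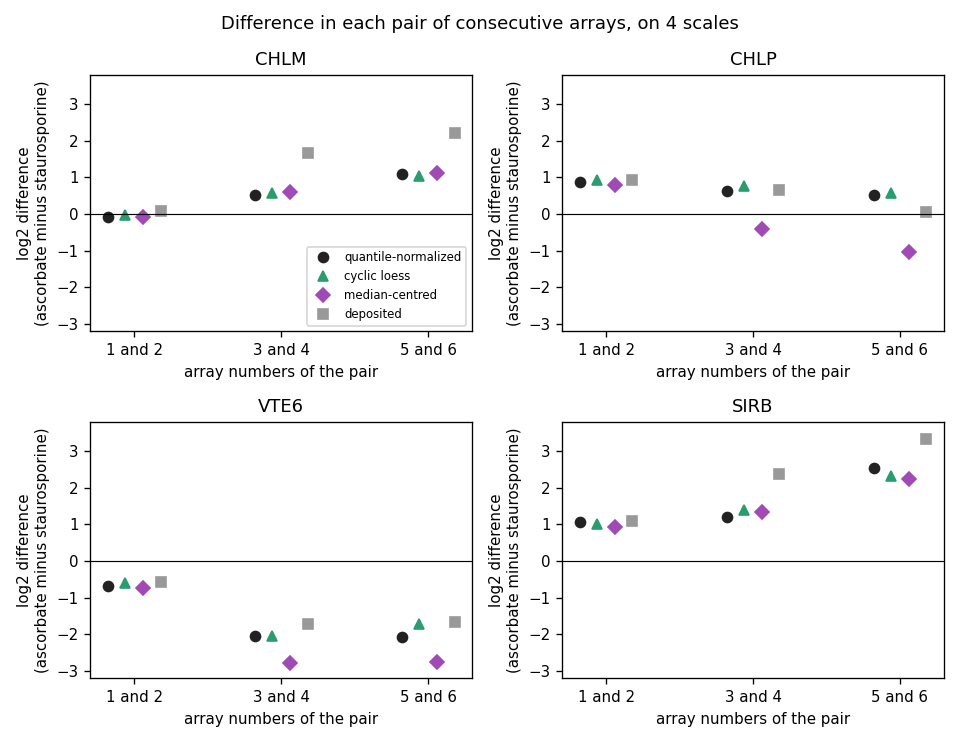
Log2 difference, ascorbate minus staurosporine, of each gene in each pair of consecutive arrays, on 4 scales marked by shape and colour. The line at 0 marks no difference. All 12 points of SIRB lie above 0 and all 12 of VTE6 below it, whereas CHLP after median centring lies below 0 in the pairs of arrays 3 and 4 and of arrays 5 and 6 and CHLM lies near 0 in the first.

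The fit across all features (limma on 12 arrays, Benjamini-Hochberg adjusted p under 0.05) called 964 of 3438 features, a share of 28.0%, with 479 higher (13.9%) and 485 lower (14.1%) with ascorbate. On the deposited scale the split was 1093 higher and 208 lower, or 84.0% higher against 49.7%. CHLP and SIRB were among the features called higher, VTE6 among those called lower, and CHLM was not called. These genes were chosen with that contrast known, and nothing is read from the count of 3 in 4. With each pair of consecutive arrays taken as 1 value, 53 features (1.54%) were called and none of the 4 genes was among them, in a fit with 3 values per group. All 4 were called on the deposited scale, where 1301 features (37.8%) were called, and when ascorbate array 1 was left out, where 898 (26.1%) were. After median centring 1270 features (36.9%) were called, VTE6 and SIRB among them. With the array number as a block 849 features (24.7%) were called, with CHLP, VTE6 and SIRB among them. Deposited intensities of the 2 groups did not overlap for CHLP and SIRB. This was so for 446 features (13.0%) in the same direction. Ranks did not overlap for CHLP and SIRB, which ranked higher with ascorbate as did 294 features (8.55%), or for VTE6, which ranked lower as did 291 features (8.46%). Since the members were chosen with these values known, nothing is read from these calls and counts either.

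**Figure D4:**
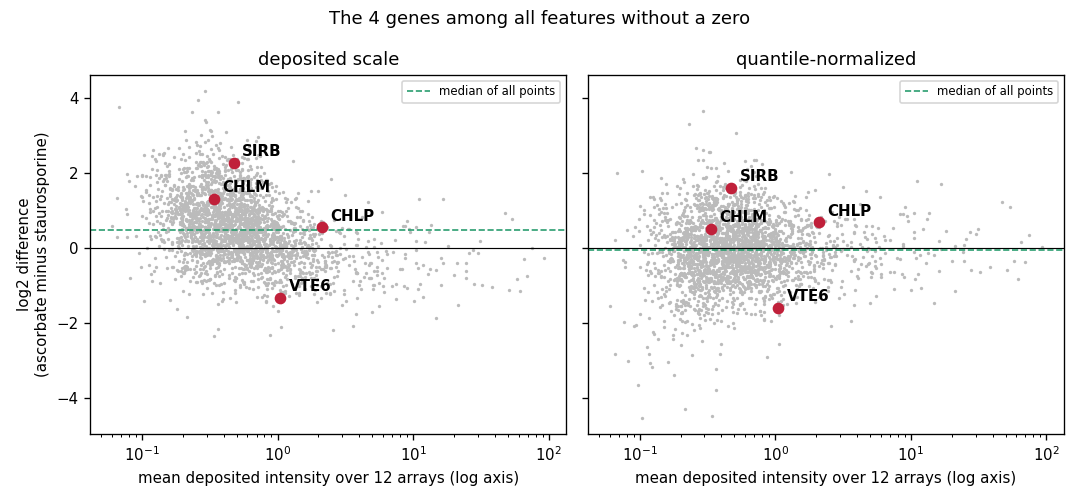
Log2 difference, ascorbate minus staurosporine, against mean deposited intensity over the 12 arrays (log axis) for the 2540 features without a zero (grey), on the deposited scale at the left and after quantile normalization at the right. Red points are the 4 genes, and the dashed line is the median of the grey points, 0.49 at the left and −0.06 at the right. CHLP lies near the median line at the left and above it at the right, while SIRB lies above and VTE6 below it in both. The median is over features of every brightness.

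Other genes of these pathways were looked up in 8 lists of 93 loci, from aminolevulinate to carotenoids, and 3 had a probe with 1 gene. Most enzymes of chlorophyll, heme, siroheme, tocopherol and isoprenoid precursor synthesis were therefore not analysed here. Of the 3, none passed in either direction in the fit on 12 arrays (limma, adjusted over all features), and 1 of the 3 had an unadjusted p under 0.05. This was HEMA3 (AT2G31250), of the glutamyl-tRNA reductase family that starts tetrapyrrole synthesis.

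HEMA3 read 0.872 to 1.68 with staurosporine, with a median of 1.13, and 0.496 to 1.21 with ascorbate, with a median of 0.949. The groups overlapped, and ascorbate arrays 5 and 6 had the lowest readings. Its log2 difference was −0.73 ± 0.31 (SE, limma adjusted p = 0.111), and −0.53, −0.41 and −1.24 in the pairs. With the array number as a block it passed (limma adjusted p = 0.0342), as it did after median centring (limma adjusted p = 0.0123), and over the averages of consecutive arrays it did not (limma adjusted p = 0.386).

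Z-ISO (AT1G10830), the isomerase of zeta-carotene in carotenoid synthesis, read 0.0777 to 0.558 with staurosporine, with a median of 0.217, and 0.0886 to 0.932 with ascorbate, with a median of 0.428. Its normalized log2 difference was −0.17 ± 0.64 (SE, limma adjusted p = 0.887). The sign of this value was not stable, at 0.62 on the deposited scale, −0.70 without the dimmest features, 0.02 and 0.35 without ascorbate arrays 1 and 2, and −0.51 without ascorbate array 5. The pairs went opposite ways, with −2.48 in the pair of arrays 1 and 2 against 0.67 and 1.30 in the others. Ascorbate arrays 1 and 2 held its lowest ascorbate readings, and staurosporine arrays 1 and 2 its highest staurosporine readings. HEMN (AT5G63290), a homologue of an oxygen-independent coproporphyrinogen oxidase of bacteria, was listed at 0 on all 12 arrays, which can be a failed reading.

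The named loci with the profile nearest to each gene were found over the 12 arrays among 508 others without a zero, by the root mean square difference of normalized log2 values centred on each locus. Nearest to CHLM were AT2G47830, AT2G25640 and AT5G40070, at 0.21, 0.21 and 0.23 log2 units, and their log2 differences between the groups were 0.46, 0.42 and 0.30. Nearest to CHLP were AT2G38550, XERICO (AT2G04240) and AT4G24930, at 0.16, 0.18 and 0.19, with differences of 0.73, 0.83 and 0.72. XERICO encodes a RING-H2 zinc finger protein linked to abscisic acid. All 3 were higher in rank on each ascorbate array than on any staurosporine array, as were CHLP and 8.55% of all features. These loci were picked for closeness to CHLP over the same arrays, so nothing is read from the shared separation.

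The nearest locus to VTE6 was AT1G11730, at 0.26, with a difference of −1.49. It read 0.492 to 0.796 with staurosporine and 0.181 to 0.517 with ascorbate. AT2G21720 and AT1G67930 were farther off, at 0.39 and 0.40, with differences of −1.46 and −1.76. Nearest to SIRB were AT4G30740, SECE1 (AT4G14870), a subunit of a plastid Sec translocase, and AT3G12930, at 0.24, 0.25 and 0.29. Their differences were 1.81, 1.27 and 1.17, and the deposited intensities of each did not overlap between the groups. The same held, in this direction, for 13.0% of all features. As the loci were picked for closeness to SIRB over these arrays, nothing is read from the shared separation. No member was among the 3 loci nearest to another member.

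**Figure D5:**
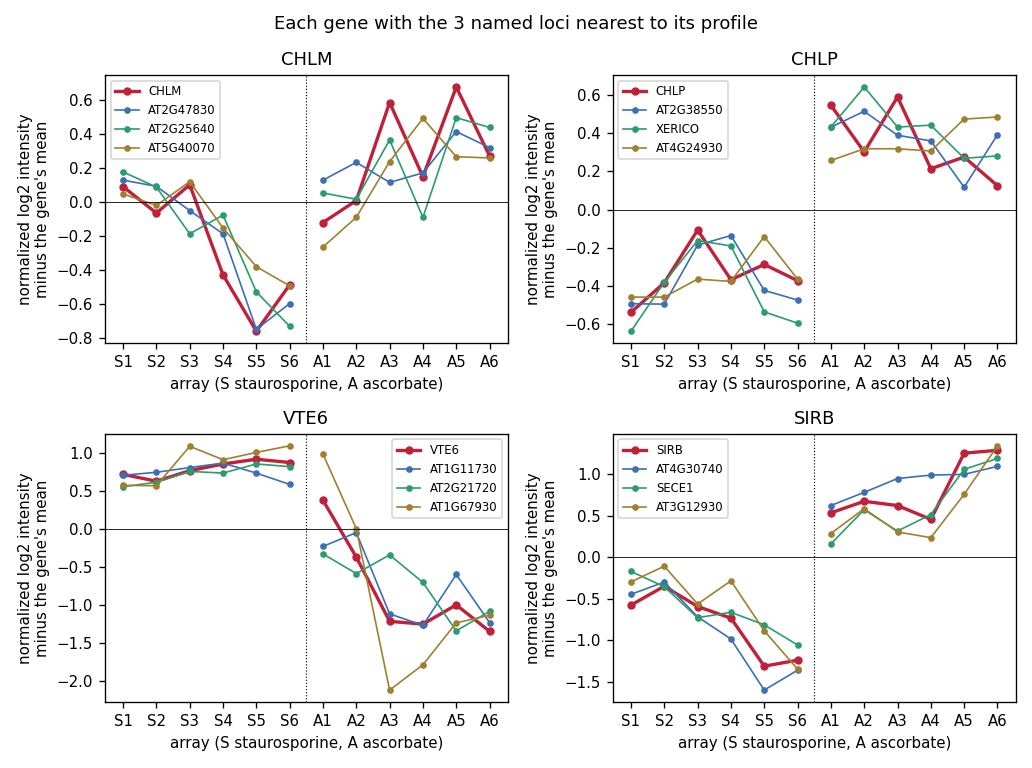
Normalized log2 intensity minus the gene's own mean over the 12 arrays, for each gene (red, thick) and the 3 named loci with the smallest root mean square difference to it (thin). Arrays S1 to S6 are staurosporine and A1 to A6 ascorbate, divided by the dotted line. The CHLP profiles lie within 0.19 log2 units of it in root mean square, and those of VTE6 within 0.40.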

How the data were processed

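Total RNA was measured on 12 arrays, and the titles in the labels gave groups and replicate numbers. The intensity values were used as deposited. Which scanner, background correction and scaling the authors used is not given in the sources used here. Of 3439 probes, 692 had 1 gene in the platform annotation, 870 had several and 1877 had no gene. Of the 692, 690 matched the TAIR10.1 gene table by Entrez number, used for names only since no build is given for the array. Averaging probes of 1 locus left 3438 features and 689 named loci. Zeros took the smallest positive value of their array, log2 was taken and arrays were quantile-normalized.

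The test was limma's (version 3.58.1, under R 4.3.3), 2-sided and adjusted over all features, and was tested on simulated data. Same-numbered arrays of the groups deviated together, with correlations of 0.106 to 0.347 across features. Different-numbered arrays were not compared in this way, so a likeness shared by consecutive arrays could give the same values. As each correlation exceeded 0.1, numbers were taken as possibly pairing arrays, on the data alone. This pairing entered the test only as an alternative, the fit with a block for array number. The fit without alternatives had no such block, so its SEs, adjusted p values and calls treat the arrays as unpaired. Spearman correlations of consecutive arrays were 0.889 to 0.983. The genes and lists were chosen with earlier results of these data known. Named genes were the 4 members, each measured list gene and the 3 nearest profiles per member. As alternatives, the values were left on the deposited scale, centred on array medians, normalized by cyclic loess, given a pseudocount of 0.000225 instead of a floor, or stripped of the dimmest 25% of features. The fit was also run with a block for array number, over pair averages and without each array. The number of arrays limits the precision.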

Additional observations from a re-analysis of the deposited data

How the results depend on the processing

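The directions of VTE6, SIRB and CHLM were kept under each alternative that could change the difference, and that of CHLP under each but median centring. There the log2 difference of CHLP went from 0.68 to −0.21 ± 0.29 (SE), a value smaller in size than its SE. The block for array number and the pair averages return the same differences by design. On the deposited scale CHLM and SIRB moved to 1.31 and 2.26, and after median centring VTE6 moved to −2.09. Averaging consecutive arrays brought the features called from 964 to 53. Of the 3 other pathway genes, 1 was called on the deposited scale, 2 after median centring and 1 with the replicate block, against 0 in the 12-array fit, while 37.8%, 36.9% and 24.7% of all features were called in these settings and 28.0% in the 12-array fit. The call on the deposited scale and 1 of the 2 after median centring were of HEMN, which is at 0 on every array and differed there only because its zeros took each array's smallest positive value. The other calls were of HEMA3. With each array left out in turn, the difference of CHLM ran from 0.41 to 0.60, of CHLP from 0.64 to 0.75, of VTE6 from −1.86 to −1.52 and of SIRB from 1.47 to 1.71. The features called then ran from 788 to 951 and the pathway genes called stayed at 0. With the array number as a block, 849 features were called, against 964 without it. Signal over background could not be set, since no background reading was used here, and 6 arrays per group, or 3 pairs, limit every value.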
